A study of Mus musculus with 135 samples.

Results

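The enzymes that make heme were followed by RNA sequencing of whole tissue from 2 brain regions, cerebral cortex and hippocampus, in sickle cell mice and their controls. The members are the 8 genes Alas1, Alas2, Alad, Uros, Urod, Cpox, Ppox and Fech, found by symbol among the 55416 genes of each of the count tables of the 2 tissues. All 8 were present once in each table and had enough reads to be tested in every comparison. All mice were male Townes mice, in which human globin genes replace those of the mouse. AA mice carry the normal human beta globin and SS mice the sickle form, in every cell of the body and throughout life, at an age of about 6 months.

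Some mice went through repeated social defeat (RSD), in which an unfamiliar aggressive male was placed into the home cage for 2 hours a day on 6 days, and some drank minocycline, a tetracycline antibiotic, aimed at 90 mg/kg and begun 1 day ahead of RSD. The cortex libraries used here came from mice of the AA genotype (12 AA, 3 AA + RSD, 1 AA + minocycline, 18 AA + RSD + minocycline) and of the SS genotype (14 SS + RSD + minocycline, 6 SS + RSD, 8 SS, 4 SS + minocycline). The hippocampus libraries came from the same groups, with 11 AA and 7 SS mice and the other numbers unchanged. The groups named AA and SS alone had neither RSD nor minocycline. Each library is 1 mouse and 1 tissue, so the tests within a tissue measure the spread between mice. The main comparison of the tissues treated the 2 libraries of a mouse as independent. Levels are given in CPM, the reads of a gene scaled to 1000000 reads on all genes of that library.

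Heme is an iron-carrying ring that is built from glycine and succinyl-CoA by enzymes that sit partly in mitochondria and partly in the cytosol. Almost every cell makes some heme for its respiratory chain and its cytochromes, starting with the enzyme Alas1, whereas red cell precursors make it in bulk for hemoglobin and start with Alas2, which is encoded on the X chromosome. Alad, Uros, Urod, Cpox and Ppox carry out later steps in all cells, and Fech, ferrochelatase, places the iron in the finished ring. Immature red cells in the blood, reticulocytes, still hold Alas2 RNA. Bulk tissue gives the RNA of all cells together, so a change in the number of cells of a type and a change in RNA per cell cannot be told apart.

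The sequences upstream of Alas2, Alas1 and Cpox are shown because Alas2 was the enzyme that differed between the genotypes, Alas1 catalyses the same reaction and did not pass the test, and Cpox held the most GATA letters of the members printed here. They are the 250 bases ahead of the annotated start in RefSeq, build GRCm38.p6, read 5′ to 3′ on the strand of the gene. Alas2 lies at chrX:150547167-150547416 on the plus strand, the second of 2 annotated starts of Alas1 at chr9:106247955-106248204 on the minus strand, and Cpox at chr16:58669958-58670207 on the plus strand. Capitals mark matches, on either strand, to AGATAA (a form of the site of GATA factors), to its other forms, which are TGATAA, then AGATAG, and lastly TGATAG, to CACCC (a site of Klf factors) and to TATAAA.
Alas2: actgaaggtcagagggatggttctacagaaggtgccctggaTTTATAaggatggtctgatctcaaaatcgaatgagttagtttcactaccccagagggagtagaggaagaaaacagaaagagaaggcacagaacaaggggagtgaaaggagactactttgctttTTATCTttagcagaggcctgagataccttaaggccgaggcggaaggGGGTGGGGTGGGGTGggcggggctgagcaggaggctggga
Alas1: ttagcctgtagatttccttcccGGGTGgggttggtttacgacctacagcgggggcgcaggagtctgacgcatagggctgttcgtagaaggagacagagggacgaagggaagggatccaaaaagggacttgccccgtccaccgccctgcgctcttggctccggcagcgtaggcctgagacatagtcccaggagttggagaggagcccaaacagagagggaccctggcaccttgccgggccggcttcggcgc
Cpox: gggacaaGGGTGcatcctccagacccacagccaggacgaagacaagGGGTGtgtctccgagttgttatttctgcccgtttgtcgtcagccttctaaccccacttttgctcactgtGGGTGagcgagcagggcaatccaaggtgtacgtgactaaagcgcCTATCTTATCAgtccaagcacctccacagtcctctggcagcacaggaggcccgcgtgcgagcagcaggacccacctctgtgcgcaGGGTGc

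In the Alas2 sequence the match to AGATAA lay at bases -86 to -81, counted back from the start, on the minus strand. A run of 3 CACCC matches followed at -40 to -26, with no gap between them, and TATAAA was found on the minus strand at -209 to -204. Neither of the Alas1 windows held a GATA match. The Cpox window, counted from 250 bases before to 50 after the start, held 3, of which AGATAG and TGATAA at -91 to -81 share 1 base and AGATAA lies just past the printed bases. The Uros window held 2. Such letters are common: 29.8% of 32851 promoter windows of this length held at least 1 of the 4 GATA forms, 7.77% held 2 or more, 1.76% held 3 or more, 57.5% held CACCC and 13.6% held TATAAA. These matches describe the letters and are not evidence of binding.

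Several libraries stood apart and bear on the values that follow. Libraries of mouse 9887 (SS + minocycline) and mouse 9877 (AA + RSD + minocycline) held identical counts in each tissue, and neither was used. The library of AA + RSD mouse 9674 labelled cortex held more hippocampus marker RNA (472 CPM summed) than cortex marker RNA (107 CPM), and the one labelled hippocampus the reverse (70.5 and 296 CPM), so both went against their labels. AA mouse 9631 was the only one with more than a few reads of the mouse beta globin Hbb-bs, 1944 in the cortex and 1570 in the hippocampus. All RSD-only mice belong to the lowest number series of the labels (series A), all minocycline mice to other series (B and C), and controls to A and B, so these series and the treatments go together. Reads on genes ranged from 16295042 to 107713193 in cortex and from 12869149 to 68731008 in hippocampus libraries.

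Alas2, the erythroid enzyme of the first step (chromosome X, 149330371 to 149353634 on the plus strand of GRCm39), was the member that differed between SS and AA mice. In the cortex it ranged from 2.6 to 95.9 CPM in the 12 AA mice, with a median of 4.3, and from 54.02 to 122.2 CPM in the 8 SS mice, with a median of 102.5. In the hippocampus it ranged from 1.7 to 55.5 CPM in the 11 AA mice (median 3.5) and from 46.3 to 126.8 CPM in the 7 SS mice (median 84.5). All SS mice lay above the AA median, and the groups overlapped only through AA mouse 5844, since the next AA mouse stood at 11.2 CPM in the cortex and 10.7 CPM in the hippocampus.

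The fitted difference of SS against AA was 2.90 ± 0.51 (SE) on the log2 scale in the cortex, a 7.47-fold higher level (95% interval of the log2 difference 1.90 to 3.90, adjusted p = 0.000634). It was 3.33 ± 0.55 in the hippocampus, 10.03-fold (2.25 to 4.40, adjusted p = 0.000202). These come from edgeR's quasi-likelihood test, with Benjamini-Hochberg adjustment over all genes, and a gene with an adjusted p under 0.05 is called. Alas2 was thus 1 of 8 members called in each tissue, where 0.214% of all cortex genes tested and 0.159% of all hippocampus genes tested were called. The median log2 difference of the 8 members was 0.05 in the cortex and 0.08 in the hippocampus, against -0.00 and 0.01 for all genes tested.

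The fit includes AA mouse 5844, and the ratio of the group medians was larger than the fitted fold, 23.8 in the cortex and 24.2 in the hippocampus. AA + RSD + minocycline mouse 5853 (51.9 and 46.2 CPM in cortex and hippocampus) and SS + RSD + minocycline mouse 7078 (6.5 and 3.5 CPM) also went against the level of their genotype. Human globin genes were not analysed here, so the genotype labels of these mice were not checked. Without these 3 mice the log2 difference of SS against AA was 4.21 in the cortex and 4.47 in the hippocampus. They were picked by the level of red cell RNA, so a larger difference without them follows from the choice. Without mouse 9631, the difference was 2.78 and 3.21 and stayed called. Among libraries with less than 7% of reads outside genes, described with Ppox, the difference was 2.35 (adjusted p = 1) and 2.92 (adjusted p = 0.157). The only SS mice among those libraries were 5349 and 5353. In series B alone the difference was 2.48 (adjusted p = 0.0397) and 2.98 (adjusted p = 0.0551). AA mouse 5844 was in both of these subsets.

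**Figure D1:**
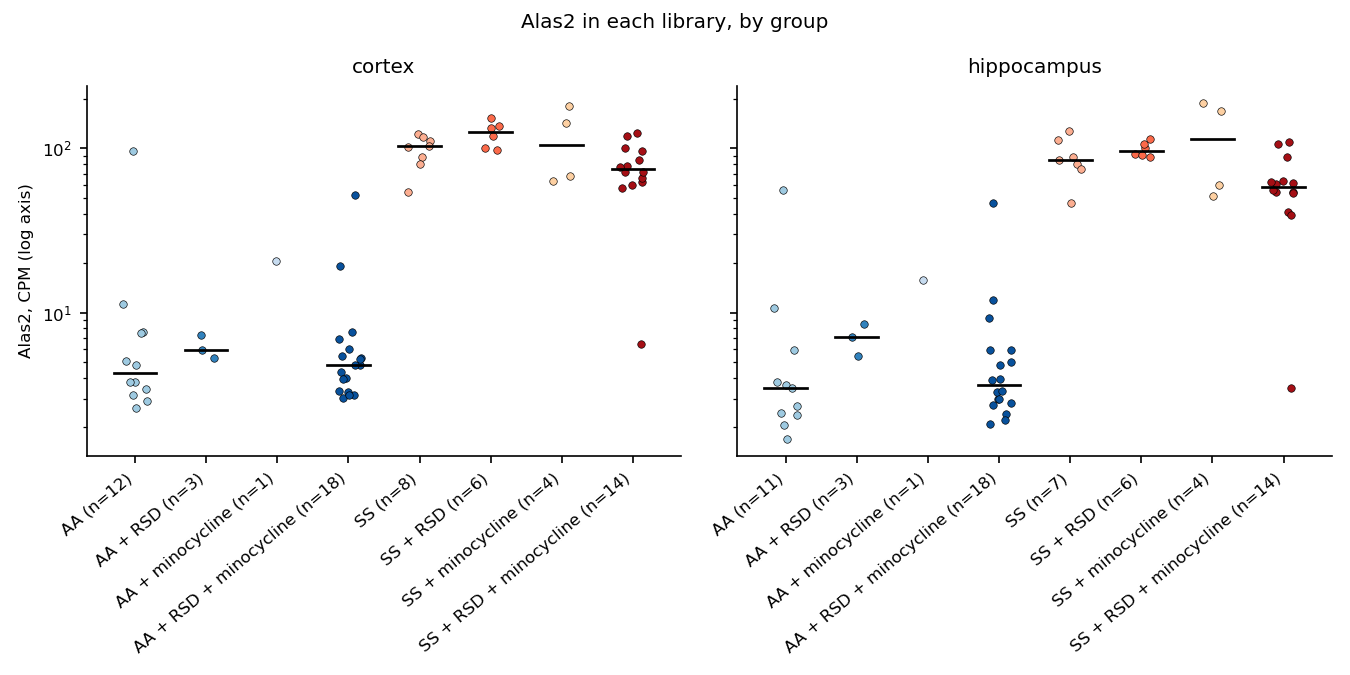
Alas2 level in CPM on a log axis, 1 point a library, for each group in the cortex and the hippocampus; the short line is the group median. The SS groups lie mostly between 40 and 190 CPM and the AA groups mostly under 12 CPM, with mice 5844 and 5853 high among AA mice and mouse 7078 low among SS mice.

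The genotype difference of Alas2 was also called among mice exposed to RSD. The 3 AA + RSD mice held 5.9, 5.3 and 7.4 CPM in the cortex and 5.4, 7.1 and 8.6 CPM in the hippocampus, in the order 9643, 9646 and 9674. The 6 SS + RSD mice ranged from 97.5 to 153.2 CPM in the cortex (median 125.4) and from 88.2 to 112.8 CPM in the hippocampus (median 96.0). The groups did not overlap in either tissue.

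The log2 difference of SS + RSD against AA + RSD was 4.31 ± 1.00 in the cortex (19.81-fold, adjusted p = 0.0188) and 3.82 ± 0.98 in the hippocampus (14.15-fold, adjusted p = 0.0395). Alas2 was the 1 member called, where 0.493% and 0.78% of all genes were. The size did not rest on 1 of the 3 AA + RSD mice, since it stayed between 4.20 and 4.45 in the cortex and between 3.63 and 4.04 in the hippocampus without each in turn. The call did, with adjusted p from 0.082 to 0.702 and from 0.0701 to 0.807, the highest without mouse 9674. The call was also lost in the cortex among libraries with less than 7% of reads outside genes (adjusted p = 0.0506) and in the hippocampus without a filter on low counts (adjusted p = 0.0647), at log2 differences of 4.35 and 3.84.

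With RSD and minocycline together the same direction was called with the most mice. Alas2 ranged from 3.0 to 51.9 CPM in the cortex of 18 AA + RSD + minocycline mice (median 4.8) and from 6.5 to 122.9 CPM in 14 SS + RSD + minocycline mice (median 74.3). In the hippocampus the ranges were 2.1 to 46.2 CPM (median 3.6) and 3.5 to 109.3 CPM (median 58.1). The log2 difference was 3.23 ± 0.42 in the cortex (adjusted p = 2.06e-07) and 3.22 ± 0.42 in the hippocampus (adjusted p = 4.16e-07). Again Alas2 was the 1 member called, where 0.624% and 2.74% of all genes were.

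Differences in Alas2 with exposure, within a genotype, did not pass the test with all libraries. SS + RSD against SS gave a log2 difference of 0.46 ± 0.33 in the cortex (adjusted p = 0.352) and 0.26 ± 0.41 in the hippocampus (adjusted p = 0.741). SS + RSD + minocycline against SS + RSD gave -0.80 ± 0.29 (adjusted p = 0.0763) and -0.72 ± 0.35 (adjusted p = 0.182). In the cortex this was called without mice 7076, 9851 and 9889 (-0.79, adjusted p = 0.0488) and without mice 5844, 5853 and 7078 (-0.70, adjusted p = 0.0331). Of the latter only 7078 is in these groups. It was picked by its level of red cell RNA, so that call is not independent of the choice. These groups also come from different number series, and with the series as a term in the fit the values were -0.29 and -0.04. The 4 SS + minocycline mice held 62.7, 67.2, 141.2 and 180.5 CPM in the cortex and 51.02, 59.6, 188.5 and 169.2 CPM in the hippocampus (mice 7108, 7121, 9888 and 9889). Mice 7108 and 7121 belong to series C and the others to series B. Against SS mice the log2 difference of SS + minocycline was 0.30 ± 0.37 and 0.53 ± 0.45, and it was not called. With series B alone it was called in the cortex (0.97, adjusted p = 0.0171), where 27.1% of all genes were, as was SS + RSD + minocycline against SS + minocycline (-1.11, adjusted p = 0.00655), where 22.96% were; mice 9888 and 9889 are the 2 SS + minocycline mice there, and the cortex library of 9889 stood apart.

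In AA mice, AA + RSD against AA gave -1.03 ± 0.99 in the cortex and -0.28 ± 0.93 in the hippocampus, with mouse 5844 in the AA group. Whether RSD acted differently on the genotypes was tested as an interaction, which was 1.41 on the log2 scale in the cortex (95% interval -0.52 to 3.33, adjusted p = 1) and 0.50 in the hippocampus. The interaction of genotype with RSD and minocycline was 0.33 and -0.10.

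Alas2 moved with the markers of red cells. A list of 14 erythroid genes, of which 13 were in the tables (Slc4a1, the anion exchanger band 3, among them), summed to a median of 1.30 CPM in the cortex of AA mice (0.87 to 16.9) and 20.4 CPM in SS mice (8.78 to 31.5). In the hippocampus the medians were 1.52 CPM (1.08 to 11.5) and 19.1 CPM (7.08 to 32.5). With RSD the sums ran from 1.00 to 1.47 CPM in AA and from 18.9 to 41.5 CPM in SS mice in the cortex, and from 1.25 to 1.90 CPM and from 14.8 to 33.2 CPM in the hippocampus.

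With RSD and minocycline the erythroid sums had medians of 1.55 and 13.7 CPM in the cortex and of 1.39 and 11.4 CPM in the hippocampus in AA and SS mice. The 3 mice that went against their genotype in Alas2 did so here as well: 5844 held 16.9 and 11.5 CPM, 5853 held 9.41 and 9.21 CPM, and 7078 held 2.05 and 1.76 CPM. Slc4a1 had reads in every library, whereas Gata1, an erythroid transcription factor, was at 0 in 43 of 68 cortex and 40 of 66 hippocampus libraries. The part of red cells left in the tissue in the Alas2 difference was not tested, and perfusion of the brains used for RNA is not given in the sources used here. Summed endothelial markers were also higher in SS mice, with medians of 147 CPM in AA and 190.0 CPM in SS mice in the cortex and 135 and 180.4 CPM in the hippocampus, over all groups.

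The genes whose log2 CPM ran closest to that of Alas2 over the 66 cortex and the 64 hippocampus libraries were Slc4a1 (Pearson's r 0.987 and 0.982), Hba-x, a mouse embryonic alpha-like globin (0.980 and 0.978), and Apol11b (0.968 and 0.968). The libraries share groups and tissue processing, so these are descriptions.

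**Figure D2:**
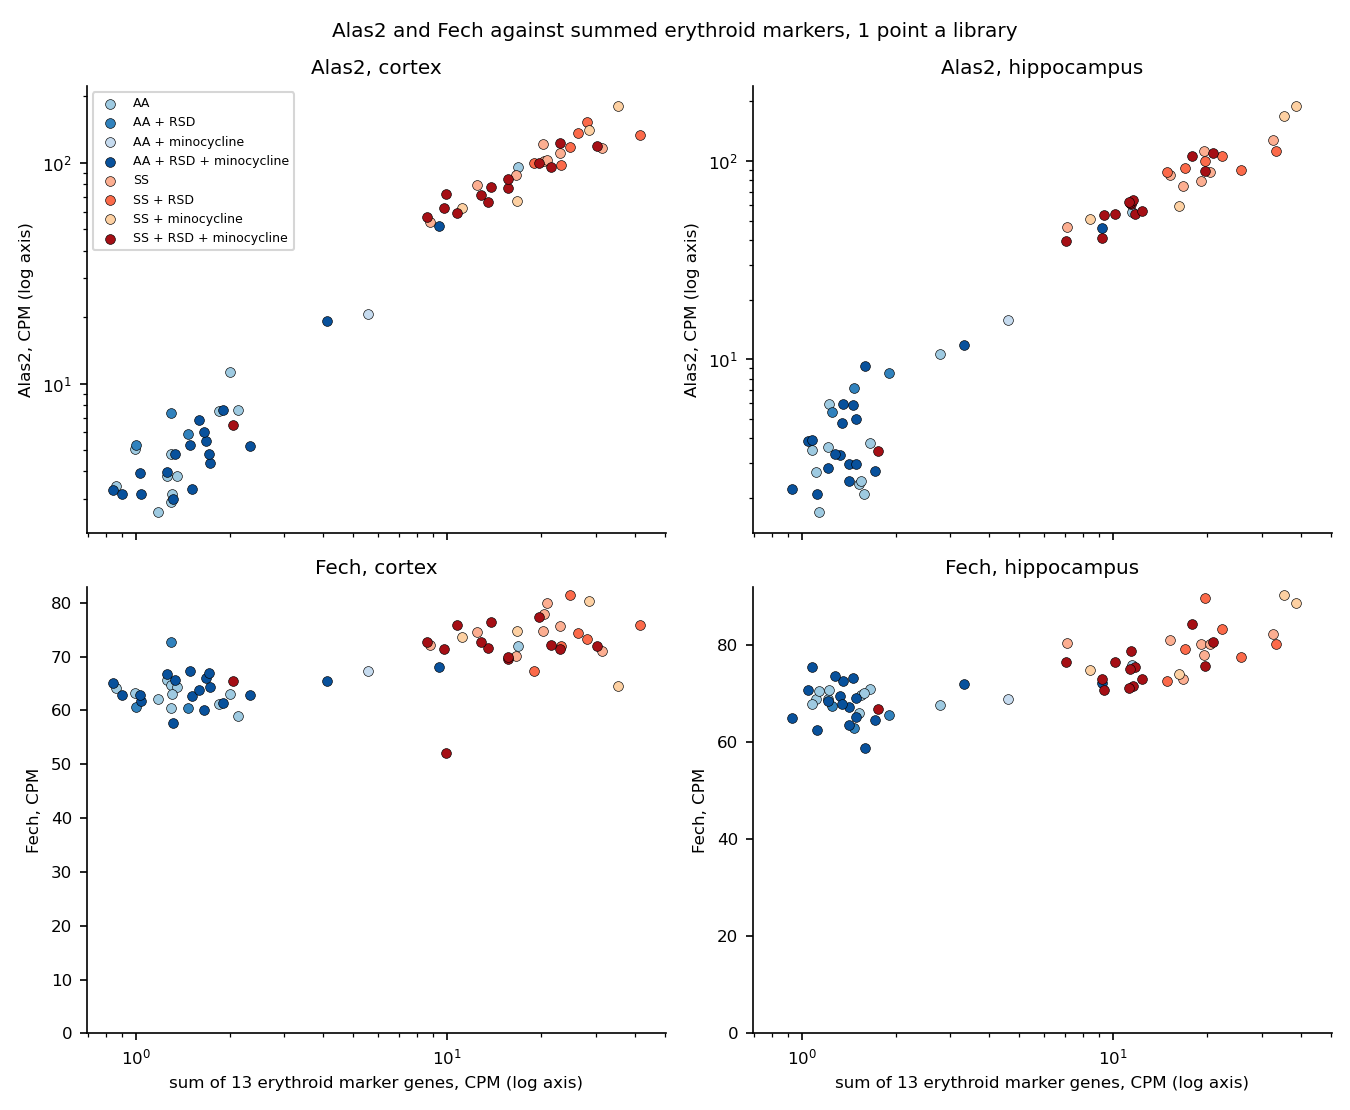
Alas2 (CPM, log axis) and Fech (CPM, linear axis) against the summed CPM of 13 erythroid marker genes (log axis), 1 point a library, AA and SS mice in different colours. Alas2 climbs along a narrow band over the whole range of the marker sum, mice 5844, 5853 and 7078 included, while Fech spans a narrow range and tends to lie higher at high sums.

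Fech, the ferrochelatase of the last step (on chromosome 18, minus strand), lay slightly higher in SS mice, by an amount that did not pass the test over all genes. In the cortex it ranged from 59.03 to 72.0 CPM in AA mice (median 63.1) and from 70.1 to 79.9 CPM in SS mice (median 74.7). In the hippocampus the ranges were 66.1 to 75.8 CPM (median 69.7) and 73.0 to 82.4 CPM (median 80.3). All SS mice lay above the AA median, and 6 of 8 in the cortex and 6 of 7 in the hippocampus lay above every AA mouse.

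The log2 difference of Fech between SS and AA mice was 0.20 ± 0.05 in the cortex (1.15-fold, adjusted p = 0.0987) and 0.16 ± 0.06 in the hippocampus (1.12-fold, adjusted p = 0.821). In the cortex DESeq2's Wald test called it (adjusted p = 0.0171), as did edgeR without the libraries of mice 7076, 9851 and 9889 (0.19, adjusted p = 0.0158). Among RSD mice, the AA + RSD mice held 60.4, 60.7 and 72.8 CPM in the cortex and 67.5, 62.9 and 65.7 CPM in the hippocampus, against 67.4 to 81.5 CPM (median 73.9) and 72.6 to 89.6 CPM (median 79.7) in SS + RSD mice. The high AA + RSD value in the cortex is that of mouse 9674, and in the hippocampus the groups as labelled did not overlap. The region markers of both libraries of mouse 9674 went against their labels. Were its 2 values exchanged, 72.8 CPM would lie within the SS + RSD range of the hippocampus and 65.7 CPM below that of the cortex.

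SS + RSD against AA + RSD differed by 0.19 in Fech in the cortex (adjusted p = 0.807) and by 0.33 ± 0.09 in the hippocampus (1.25-fold, adjusted p = 0.0561), where DESeq2 gave an adjusted p of 0.0197. Without mouse 9674 these were 0.29 (adjusted p = 1) and 0.36 (adjusted p = 0.573). With RSD and minocycline the medians were 64.1 CPM in AA and 71.7 CPM in SS mice in the cortex and 68.8 and 75.3 CPM in the hippocampus, a log2 difference of 0.12 in each (adjusted p = 0.268 and 0.149). A lower Fech in SS + RSD + minocycline than in SS + RSD mice was not called either, at -0.19 ± 0.07 (adjusted p = 0.0727) and -0.16 ± 0.07 (adjusted p = 0.163), except in the cortex without mice 7076, 9851 and 9889 (-0.15, adjusted p = 0.0455). The genes closest to Fech over all libraries were Slc4a1 (r 0.744 and 0.769), Rsad2 (0.744 and 0.803) and Fam46c (0.743 and 0.836).

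Alas1, the enzyme of the first step in other cells (chromosome 9, 106110642 to 106135734, minus strand), varied little between groups. Its median in the cortex was 58.5 CPM in AA (51.5 to 67.5) and 62.6 CPM in SS mice (58.5 to 68.4), and in the hippocampus 65.4 CPM (53.7 to 68.6) and 66.4 CPM (63.4 to 72.6). The log2 difference of SS against AA was 0.04 ± 0.07 in the cortex, with a 95% interval of -0.10 to 0.19, and 0.04 ± 0.06 in the hippocampus, with an interval of -0.08 to 0.16. In the cortex the 3 AA + RSD mice (62.5, 60.8 and 64.9 CPM) all lay above the 6 SS + RSD mice (49.4 to 60.3 CPM, median 57.9), but the difference of -0.15 ± 0.11 was not called (adjusted p = 1), and in the hippocampus the groups overlapped. No exposure called Alas1 in either genotype. Closest to it over all libraries ran Pomgnt2 (r 0.698 and 0.721), Vps51 (0.775 and 0.692) and Tbl3 (0.683 and 0.678).

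Alad (chromosome 4, 62423283 to 62438587, minus strand), which joins the products of the first step, had medians of 19.9 CPM in AA (16.99 to 23.7) and 20.1 CPM in SS mice (18.6 to 25.0) in the cortex. In the hippocampus it was 18.7 CPM (16.6 to 21.9) and 20.01 CPM (17.2 to 23.02). The groups overlapped throughout, and the log2 differences of SS against AA were -0.00 ± 0.12 and 0.06 ± 0.08. In the cortex, SS + RSD + minocycline mouse 7076 (50.6 CPM), SS + minocycline mouse 9889 (34.6 CPM) and AA + RSD + minocycline mouse 9851 (10.8 CPM) stood outside the range of the rest. By log2 distance over 11770 genes, cortex libraries 9889, 7076 and 9851 ranked 1, 2 and 5. Cortex libraries 9674 and 5801, which were kept, ranked 3 and 4. Without mice 7076, 9851 and 9889, SS + RSD + minocycline against SS + RSD in the cortex called 4 members in place of 1. The share of all genes called rose from 8.85% to 23.9%. The 4 members were Ppox (0.94, adjusted p = 0.00122) and, lower, Alas2 (-0.79, adjusted p = 0.0488), Urod (-0.43, adjusted p = 0.0124) and Fech (-0.15, adjusted p = 0.0455).

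Uros (chromosome 7, 133285987 to 133311801, minus strand), which closes the ring, had medians of 21.3 CPM in AA (16.9 to 26.1) and 21.95 CPM in SS mice (20.9 to 25.9) in the cortex and of 23.98 CPM (21.4 to 27.7) and 25.6 CPM (23.9 to 31.7) in the hippocampus. It differed by 0.06 ± 0.07 and 0.10 ± 0.07 on the log2 scale, and was not called. Cpox (chromosome 16, 58490414 to 58537999, plus strand), which oxidises the side chains of the ring in mitochondria, had medians of 37.01 CPM in AA (29.9 to 45.3) and 35.8 CPM in SS mice (32.8 to 40.6) in the cortex. In the hippocampus these were 42.4 CPM (34.8 to 47.2) and 41.8 CPM (36.9 to 44.6). The fitted differences of Cpox were -0.07 ± 0.09 and -0.02 ± 0.07, within the spread of the mice.

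Urod (chromosome 4, 116844840 to 116851610, minus strand), which trims the side chains in the cytosol, had medians of 38.5 CPM in AA (34.4 to 47.3) and 34.5 CPM in SS mice (29.5 to 48.6) in the cortex and of 37.6 CPM (32.5 to 46.6) and 33.4 CPM (30.5 to 44.7) in the hippocampus. SS against AA gave -0.14 ± 0.13 and -0.11 ± 0.12. The SS + RSD mice held a median of 41.2 CPM in the cortex (34.3 to 56.2) and 41.6 CPM in the hippocampus (36.5 to 46.7), and SS + RSD against SS gave 0.38 ± 0.18 (adjusted p = 0.176) and 0.31 ± 0.15 (adjusted p = 0.26). SS + RSD + minocycline against SS + RSD gave -0.32 ± 0.16 (adjusted p = 0.218) and -0.29 ± 0.13 (adjusted p = 0.159). The gene Zswim5 on the other strand overlaps 73.6% of the exonic bases of Urod, and the strand setting of the counts is not given in the sources used here.

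**Figure D3:**
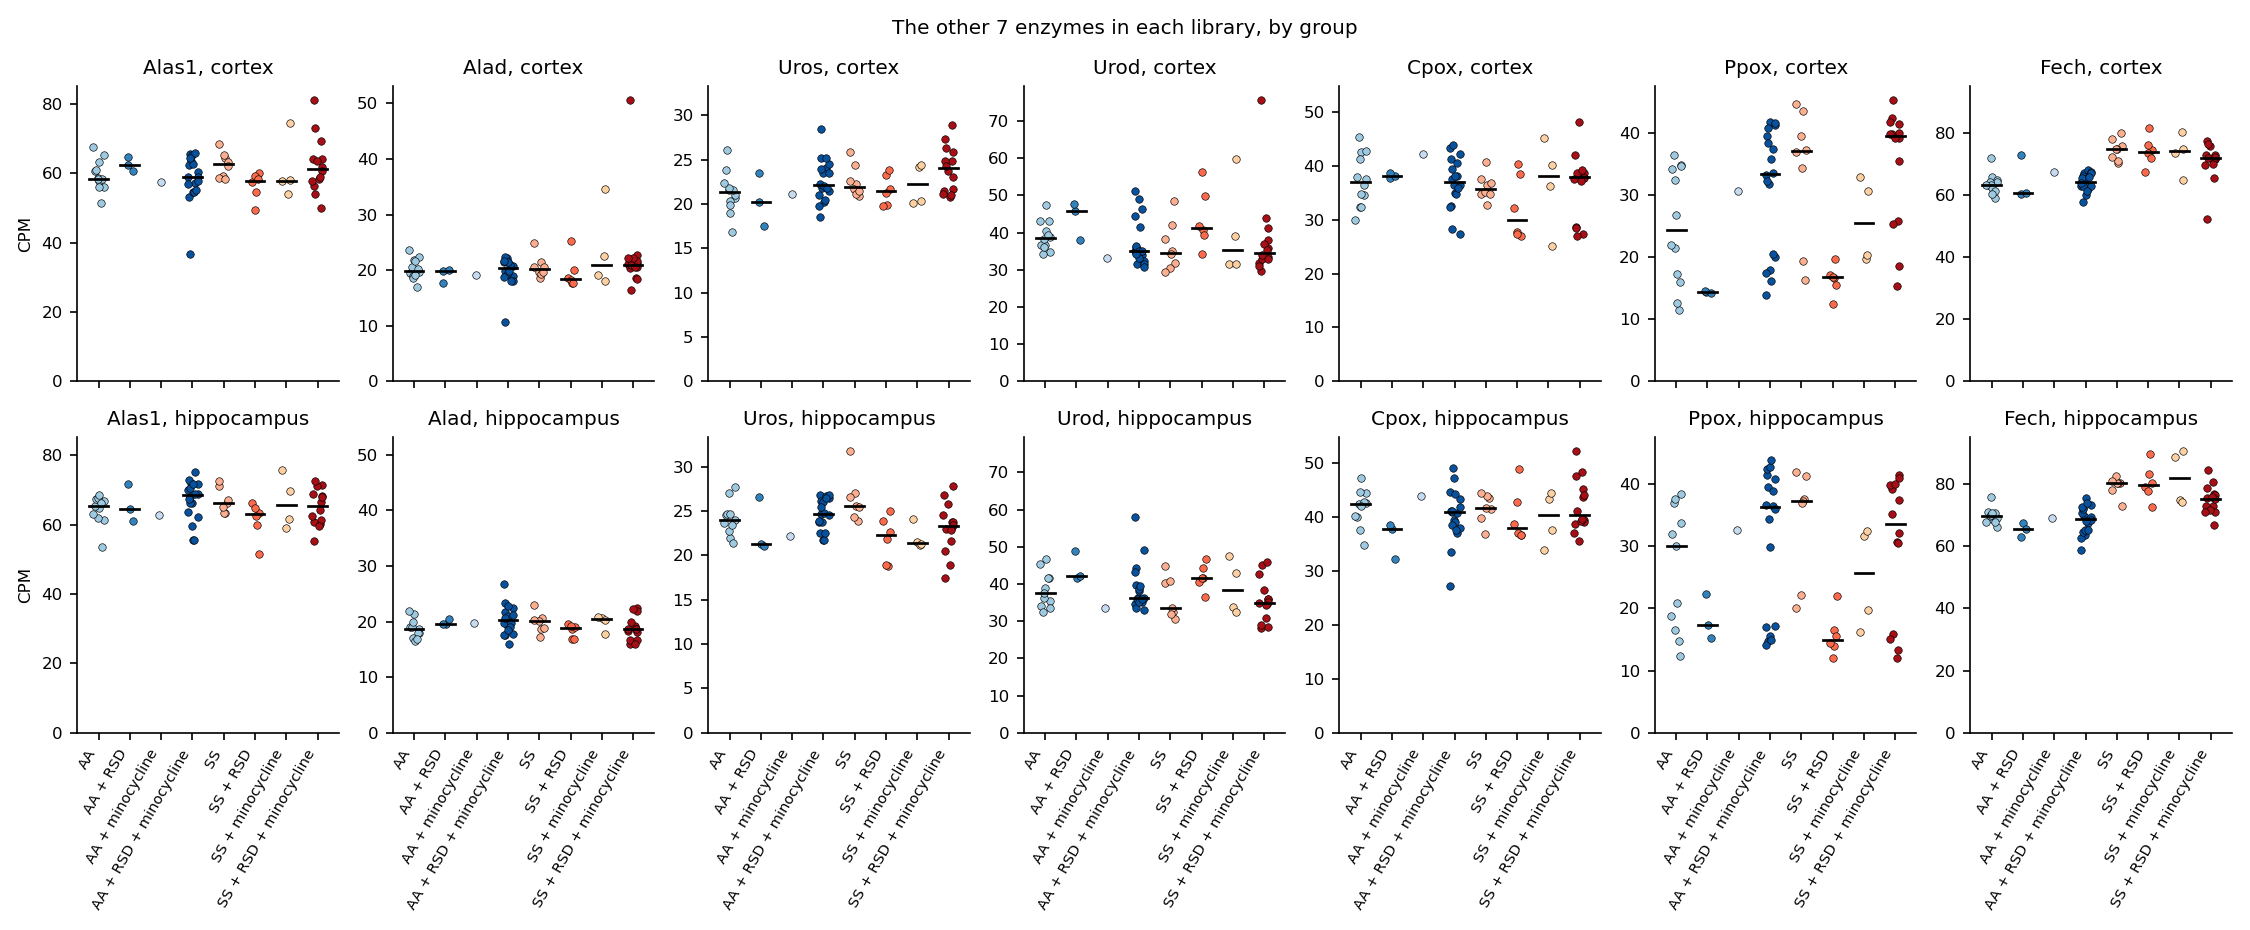
CPM of the 7 members other than Alas2, each library a point, by group and tissue, on axes that start at 0; the short line is the group median. Ppox lies lower in the SS + RSD group than in most SS mice and spreads over both low and high levels in most other groups. Alas1, Alad, Uros, Cpox and Fech mostly overlap between groups, with libraries at the ends of their ranges in both tissues (Alad in the cortex of mouse 7076 at 50.6 CPM, Uros in the hippocampus of mouse 9903 at 31.7 CPM). Exceptions include Fech in the hippocampus and Alas1 in the cortex, where AA + RSD and SS + RSD mice as labelled do not overlap.

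Ppox, protoporphyrinogen oxidase, which carries out the step ahead of Fech (chromosome 1, 171100969 to 171109385, minus strand), was the member called between SS mice with and without RSD. In the cortex it ranged from 16.3 to 44.6 CPM in SS mice (median 37.1) and from 12.4 to 19.7 CPM in SS + RSD mice (median 16.8). In the hippocampus the ranges were 20.1 to 41.95 CPM (median 37.3) and 12.1 to 22.03 CPM (median 14.97). The SS + RSD mice lay at or below the low end of the SS mice, and the groups overlapped slightly in each tissue.

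SS + RSD against SS gave a log2 difference of -0.92 ± 0.21 in the cortex (1.89-fold lower, adjusted p = 0.0405) and -0.98 ± 0.25 in the hippocampus (1.98-fold lower, adjusted p = 0.043). Ppox was the 1 member called, where 2.57% and 3.11% of all genes were. Both calls were lost without a filter on low counts (adjusted p = 0.0518 and 0.0593), and that in the hippocampus also without mouse 7078 (adjusted p = 0.0517). In SS + RSD + minocycline mice Ppox ranged from 15.3 to 45.3 CPM in the cortex (median 39.5) and from 12.03 to 41.4 CPM in the hippocampus (median 33.6). Against SS + RSD this was 0.96 ± 0.20 (1.95-fold higher, adjusted p = 0.00853) and 0.84 ± 0.23 (1.79-fold higher, adjusted p = 0.032), and again Ppox was the 1 member called, where 8.85% and 5.96% of all genes were. The call in the hippocampus was lost without the filter on low counts (adjusted p = 0.0551). The 2 comparisons share the SS + RSD mice.

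In AA mice the values ran the same way and did not pass the test. The AA + RSD mice held 14.4, 14.3 and 14.6 CPM in the cortex and 17.4, 22.3 and 15.2 CPM in the hippocampus, in a narrow range at the low end of AA mice (11.6 to 36.4 CPM, median 24.3, and 12.3 to 38.5 CPM, median 30.1). AA + RSD against AA gave -0.76 (adjusted p = 0.289) and -0.52 (adjusted p = 0.492), and AA + RSD + minocycline against AA + RSD gave 1.02 (adjusted p = 0.0556) and 0.74 (adjusted p = 0.235). The interaction of genotype and RSD for Ppox was -0.25 in the cortex and -0.50 in the hippocampus, not called.

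The number series moved with Ppox among most mice that had neither RSD nor minocycline. The 2 SS mice of series A held 16.3 and 19.3 CPM in the cortex and 20.1 and 22.2 CPM in the hippocampus, and the SS mice of series B held 34.4 to 44.6 CPM and 36.9 to 41.95 CPM. AA mice of series A held 11.6 to 21.9 CPM and 14.8 to 20.9 CPM. In series B, AA mice 9836 and 5844 were also low, at 15.9 and 21.4 CPM in the cortex and 12.3 and 16.6 CPM in the hippocampus. Their libraries had less than 7% of reads outside genes. The other AA mice of series B held 26.8 to 36.4 CPM and 30.1 to 38.5 CPM. Control mice of series B against A, with genotype in the fit, differed in Ppox by 0.93 (adjusted p = 0.000221) and 0.68 (adjusted p = 0.00764), and in Urod by -0.34 (adjusted p = 0.000626) and -0.41 (adjusted p = 0.00023). These were the 2 members called in the cortex, and in the hippocampus Alas1 (-0.15, adjusted p = 0.0157) made 3, where 42.8% and 44.3% of all genes were called.

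With the number series as a term, SS + RSD against SS gave -0.09 and -0.40 in Ppox, and SS + RSD + minocycline against SS + RSD gave -0.12 and 0.04, none of them called. Within series A alone, where the 2 SS controls stand against the 6 SS + RSD mice, the difference was -0.10 in the cortex and -0.38 in the hippocampus. Series and treatment cannot be told apart for the minocycline groups, since no minocycline mouse is in series A.

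Ppox also moved with the share of reads that fell outside annotated genes. Of the 28 cortex libraries with less than 7% of such reads, 27 held under 26 CPM of Ppox, and of the 38 with 7% or more, 36 held over 26 CPM. In the hippocampus these were 27 of 28 and 35 of 36, and both limits were chosen after the values were seen. The median Ppox level was 16.98 and 15.8 CPM below the 7% limit and 37.1 and 37.4 CPM above it. Among the SS + RSD mice the median share was 4.18% in the cortex and 4.38% in the hippocampus, against 9.75% and 7.83% in SS mice and 9.76% and 9.32% in SS + RSD + minocycline mice.

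With this share as a term in the fit, the Ppox difference of SS + RSD against SS was -0.48 and -0.64, and that of SS + RSD + minocycline against SS + RSD 0.55 and 0.37. Among libraries with less than 7% alone they were -0.16 and -0.38, and 0.61 and -0.12. The only SS mice in that subset were 5349 and 5353, which are also the SS mice of series A. For SS + RSD against SS in the hippocampus, the mice were therefore those of the series A subset, and -0.38 is not a separate check. In the cortex they differed from that subset only by SS + RSD mouse 5354, which was left out at 8.39%. None of these Ppox differences was called, and what sets the share was not tested. Urod lay the other way, with medians of 43.01 and 42.5 CPM below the limit and 34.5 and 34.7 CPM above it, and Cpox followed Ppox more weakly, at 32.6 and 38.3 CPM below and 38.3 and 42.9 CPM above. B4galt3, whose exons on the other strand overlap 39.5% of those of Ppox, differed by -0.13 and -0.12 between SS + RSD and SS mice and was not called. The genes whose level ran closest to Ppox over all libraries were Rgl2, Rps6kb2 and Taz, each with r of 0.98 in both tissues.

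**Figure D4:**
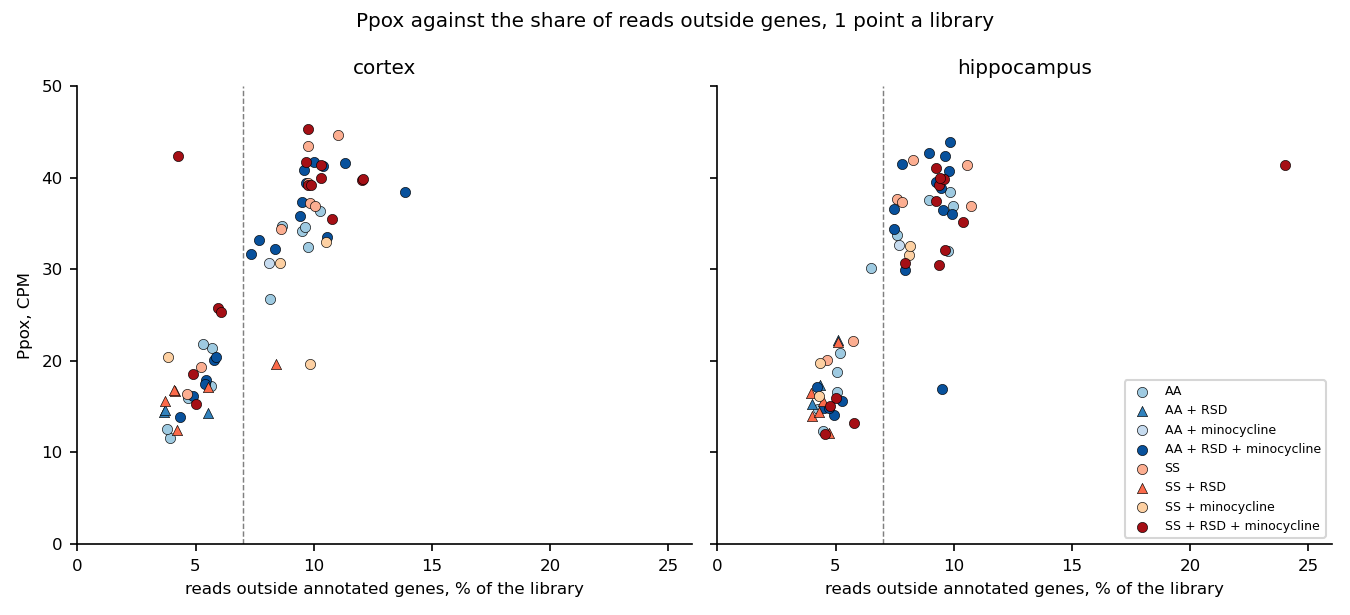
Ppox in CPM against the percentage of reads outside annotated genes, 1 point a library, cortex and hippocampus, with the RSD-only groups as triangles and a dashed line at 7%. Ppox lies mostly under 26 CPM left of the line and mostly over it to the right, and all triangles lie at 22.3 CPM or less.

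The other comparisons called none of the 8 members with edgeR. They were AA + RSD against AA (0.853% of all cortex genes and 1.19% of all hippocampus genes called), AA + RSD + minocycline against AA + RSD (3.6% and 2.67%), AA + RSD + minocycline against AA (0.0319% and 0%), SS + RSD + minocycline against SS, SS + minocycline against SS and SS + RSD + minocycline against SS + minocycline (each 0% in both tissues). The interactions of genotype with RSD (0.236% and 0.0474%) and with RSD and minocycline (0% and 0%) also called none. At an unadjusted p under 0.05, Ppox passed in 3 of these (AA + RSD against AA in the cortex, and AA + RSD + minocycline against AA + RSD in each tissue), Cpox passed in AA + RSD against AA in the hippocampus, Alas2 in SS + RSD + minocycline against SS + minocycline in the hippocampus, and Uros in the interaction with RSD and minocycline in the hippocampus. DESeq2 called Ppox in AA + RSD + minocycline against AA + RSD in the cortex and no other member in these comparisons.

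**Figure D5:**
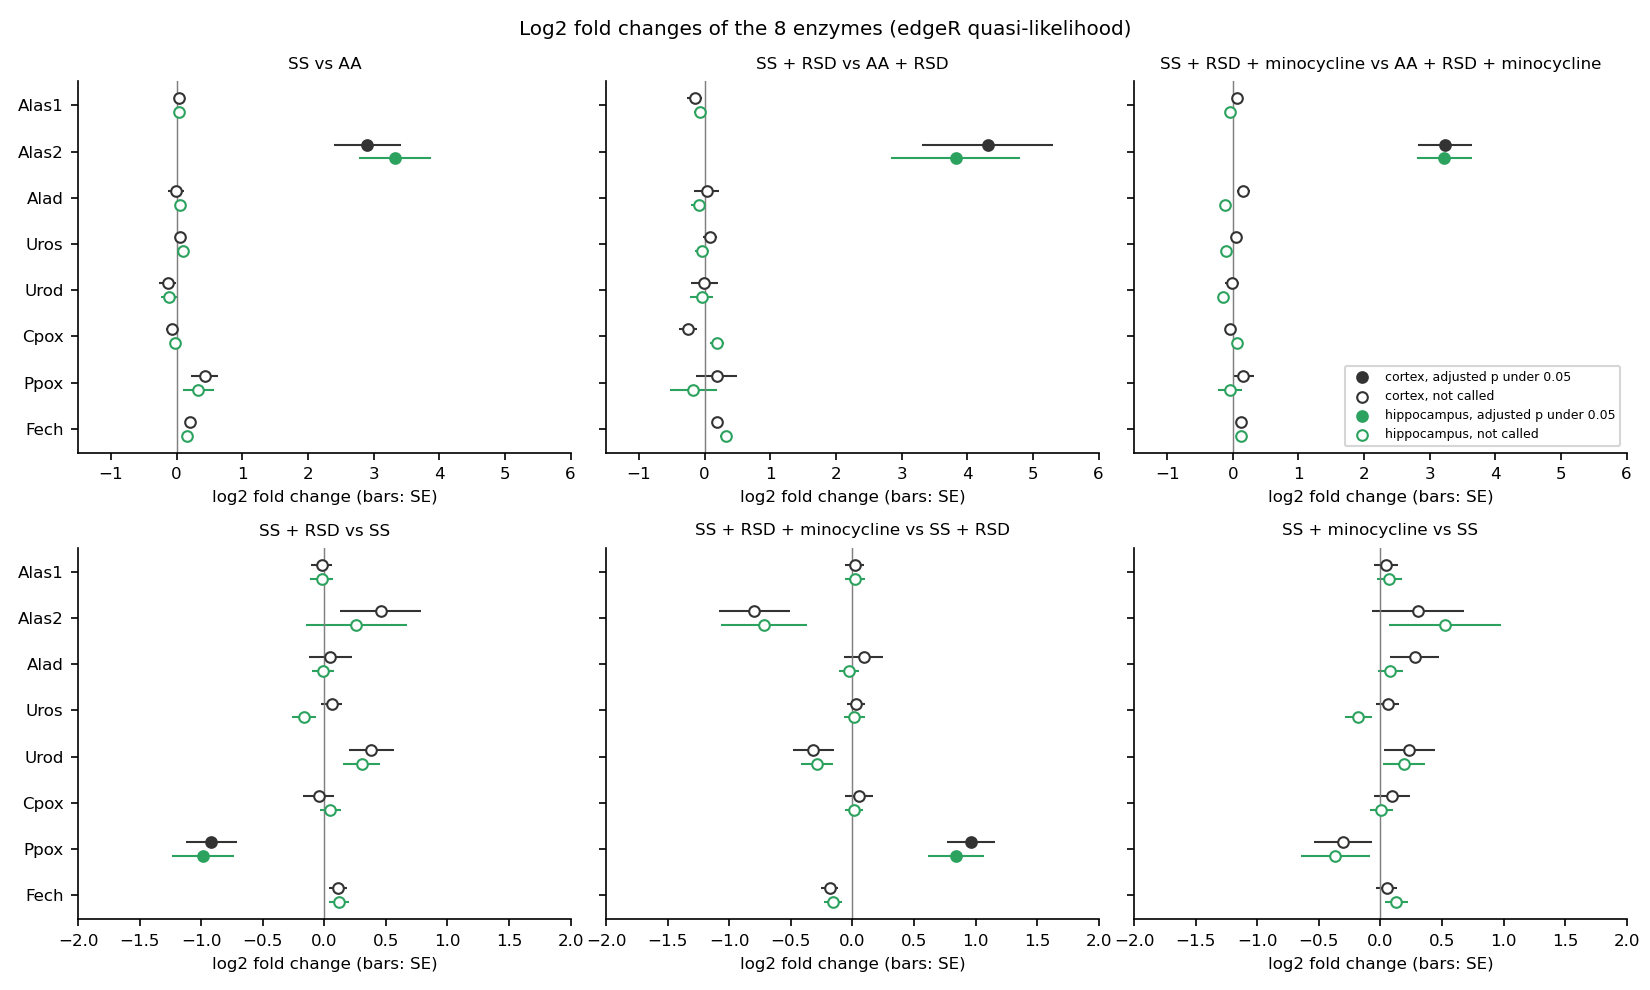
Log2 difference ± SE of each member in 6 comparisons, cortex and hippocampus; filled points have an adjusted p under 0.05. Alas2 stands at 2.90 to 4.31 in the 3 comparisons of SS with AA mice, Ppox is filled below and above 0 in the RSD and minocycline comparisons of SS mice, and the other members lie near 0.

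Between tissues, some members differed by small amounts. In AA mice the hippocampus held less Alad than the cortex (-0.14 on the log2 scale, adjusted p = 0.0387) and more Uros (0.16), Cpox (0.13, adjusted p = 0.0329) and Fech (0.10, adjusted p = 0.0258), which are 4 of 8 members called where 36.6% of all genes were. Without mouse 5844 Fech and Uros were called, and without mouse 9631 only Uros (0.14, adjusted p = 0.048). In SS mice Uros (0.20, adjusted p = 0.016) and Cpox (0.18, adjusted p = 0.0194) were called higher in the hippocampus, 2 of 8 where 30.6% of all genes were. No member was called in the difference of this contrast between SS and AA mice (0% of all genes), where none passed an unadjusted p under 0.05 and DESeq2 called none. With the mouse as a block, Alas2 was called lower in the hippocampus in AA mice, at -0.41 ± 0.09 (adjusted p = 0.000587), and in SS mice, at -0.22 (adjusted p = 0.0393). Without the block it was -0.60 (adjusted p = 0.493) and -0.17 (adjusted p = 0.9). The block also added Alas1 in AA mice (0.09, adjusted p = 0.0452) and took out Alad (-0.13, adjusted p = 0.0753).

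The level of Alas2 in 1 tissue followed that in the other across mice. Over deviations from the group mean of log2 CPM, r was 0.953 in 32 AA mice and 0.965 in 31 SS mice (Spearman's rho 0.874 and 0.844), and 0.862 and 0.872 without the 2 mice farthest from the median. The adjusted permutation p was 4e-05 for each, over the 16 relations of this family, which rests on the smallest p that 100000 permutations can give. In AA mice r was 0.919 within series A and 0.967 within series B, and in SS mice 0.569 and 0.896. Ppox also followed between the tissues, at r of 0.913 in AA and 0.846 in SS mice (rho 0.882 and 0.764, without 2 mice 0.930 and 0.842, within series A 0.764 and 0.649, within series B 0.950 and 0.899, adjusted permutation p = 4e-05). Ppox split by the share of reads outside genes in each tissue, and several mice had a low share in both libraries (4.68% and 4.47% in mouse 9836). The part of this share in the relation of Ppox was not tested.

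In AA mice Urod (r 0.488, rho 0.516, adjusted permutation p = 0.0146 for r) and Cpox (r 0.478, rho 0.511, adjusted permutation p = 0.0148 for r) were also related between the tissues. Within series A their r was -0.185 and 0.098 over 6 mice and within series B 0.550 and 0.380. Alas1, Alad, Uros and Fech gave r between -0.184 and 0.239 in either genotype, none passing the permutation test. Of 28 relations of the other members with Alas2 in the same tissue, Fech in the hippocampus of SS mice passed for r, at 0.613 over 31 mice (adjusted permutation p = 0.00056, rho 0.546 with an adjusted permutation p of 0.0112, and 0.577 without 2 mice). Within series A that r was 0.441 and within series B 0.550. On log2 CPM not centred on the groups 6 of the 28 passed, and without mice 5844, 5853, 7078, 9631 and 9674 15 did.

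Per length of the main transcript, the order of the members over all groups ran from Alad through Uros to Alas1 and Alas2. The median level in the cortex was 4.57 CPM per kilobase for Alad, 5.86 for Uros, 9.50 for Urod, 10.4 for Fech, 11.3 for each of Cpox and Ppox, 17.3 for Alas1 and 17.8 for Alas2. In the hippocampus the same medians were 4.34 for Alad, 6.43 for Uros, 9.56 for Urod, 11.02 for Ppox, 11.2 for Fech, 12.3 for Cpox, 13.5 for Alas2 and 19.4 for Alas1. The ranges of Urod, Fech, Cpox and Ppox overlapped throughout, so their order does not hold beyond the spread of the libraries. The place of Alas2 depends on genotype, since its medians over all groups were 4.9 CPM in AA and 96.8 CPM in SS mice in the cortex and 3.8 and 79.5 CPM in the hippocampus.

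A list of 21 other genes of the pathway, such as carriers of glycine, iron and porphyrins and enzymes that supply succinyl-CoA and iron-sulfur clusters, was fully tested. edgeR called 0 of them in the comparisons of SS with AA mice, as did DESeq2, with 3 in the cortex and 1 in the hippocampus at an unadjusted p under 0.05 in SS against AA. In SS + RSD + minocycline against SS + RSD, where 8.85% of cortex and 5.96% of hippocampus genes were called, the porphyrin transporter Abcb6 (1.51), the heme exporter Flvcr1 (0.62) and the mitochondrial iron carrier Slc25a28 (0.46) were called higher in the cortex, and Slc25a28 (0.43) in the hippocampus. Slc25a28 was also called in AA + RSD + minocycline against AA + RSD in the cortex (0.51), where 3.6% of all genes were. DESeq2 called 5 and 3 of the list in the first of these comparisons, in cortex and hippocampus, 3 in the second, and 3 and 2 in SS + RSD against SS, where edgeR called 0 with 7 and 5 at an unadjusted p under 0.05. The shares of all genes given here are those of edgeR, and none is given for DESeq2. On simulated cortex counts DESeq2 called 37 unchanged genes and edgeR 11 for SS against AA, and 35 and 4 for AA + RSD against AA. Of the same list, 6 were called higher and 9 lower between control mice of series B and A in the cortex, and in the hippocampus 6 were higher and 8 lower, where 42.8% and 44.3% of all genes were called. Abcb6, Flvcr1 and Slc25a28 were among those called in each tissue. All RSD-only mice are of series A and no minocycline mouse is, so series and minocycline cannot be told apart for these genes. Gm29253 on the same strand overlaps 90.8% of the exonic bases of Abcb6.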

How the data were processed

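Bulk RNA of the cortex and the hippocampus was measured in 134 libraries with a known group. The authors prepared directional polyA libraries, sequenced them as single reads of 85 bases, aligned them to GRCm39 with STAR and deposited raw read counts per GENCODE gene, 1 table per tissue. The annotation release, the STAR version and the strand setting are not given in the sources used here. Counts of 5111 genes without a symbol were kept. Lines of the tables that name no gene (medians of 12.4% and 13.3% unmapped reads, 4.98% and 4.83% reads with several positions, and 8.25% and 7.59% reads outside genes, in cortex and hippocampus) stayed out of library sizes and tests. 1 library whose labels disagree on the tissue and 3 columns with no counterpart among the labelled libraries were left aside, as were 2 libraries per tissue with identical counts.

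Counts were compared in R 4.3.3 with the quasi-likelihood test of edgeR 4.0.16 (filterByExpr with a minimum count of 10 and a minimum total of 15, TMM scaling, Benjamini-Hochberg adjustment over all genes, threshold 0.05). Comparisons within a genotype used 1 model of its groups, and comparisons of genotypes 1 model of all groups. The single AA + minocycline mouse entered the models and no comparison. DESeq2 1.42.0 was an alternative, with other scaling, no filter, number series or the share of reads outside genes as a term or a subset, and libraries left out. The tissues were compared in AA and SS mice without a block, and with the mouse as a block as an alternative. The labels give the mouse of each library, and over 11508 genes the deviations of the 2 tissues of a mouse correlated at 0.19 to 0.91 in all 18 control mice with both. Correlations used log2 CPM (prior count 2), 100000 permutations and scipy 1.17.1. On simulated counts for SS against AA in the cortex (8 against 12 mice, 17325 genes), edgeR called 89% of genes raised 2-fold and 82% of genes lowered 2-fold. For AA + RSD against AA (3 against 12, 18691 genes) it called 59% and 46%.

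All 8 members are named, other pathway genes by count, and for Alas1, Alas2 and Fech the 3 genes most alike by the lower of their 2 correlations. The other pathway genes with values and the genes closest to Ppox were named after their values were seen. Members, lists and the alternatives with fixed mice or a 7% limit were chosen with earlier results of these data known. Gene positions and lengths come from a GENCODE annotation of GRCm39 whose gene versions are newer than those of the tables. Promoter windows come from RefSeq. Another enzyme of the pathway is not reported here.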

Additional observations from a re-analysis of the deposited data

Results flagged for a closer look

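Among 48 sets of a member, group and tissue with 4 to 10 mice, 4 had 1 mouse farther from the others than Dixon's 95% limit allows, and chance flags about 1 in 20. They were Alad in the cortex of SS mouse 9824 (24.96 CPM, the highest of 8) and of SS + RSD mouse 9616 (25.18 CPM, the highest of 6), and Uros in the hippocampus of SS mouse 9903 (31.71 CPM, the highest of 7) and of SS + minocycline mouse 9888 (24.08 CPM, the highest of 4).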

How the results depend on the processing

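Of the alternative values for the counts of members called and the other summaries, 330 stayed within 1.5 times the main value and 53 moved. Of those for a single member called under any setting, 406 kept their direction and side of the threshold, 50 came to pass it, 37 no longer passed it, 13 moved and 2 reversed. Alas2 kept its direction in every comparison of SS with AA mice. The cause of each change was not tested. The share of all genes called also depends on the setting, and it is printed below for only some of the counts. Counts without that share describe the setting and are not results about the members.

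Members called in SS against AA were 2 in the cortex with DESeq2 and without mice 7076, 9851 and 9889, 0 in each tissue in libraries with less than 7% of reads outside genes, and 0 in the hippocampus in series B. SS + RSD against AA + RSD called 0 in the cortex with less than 7%, 2 in the hippocampus with DESeq2, RLE scaling, the identical libraries kept, or series or share as a term, and 0 there without the filter. Leaving out each AA + RSD mouse gave 0 to 0 in each tissue. SS + RSD + minocycline against AA + RSD + minocycline called 2 in the cortex in series B, with 7% or more, and without the 3 cortex libraries above, and 2 in the hippocampus with 7% or more and with share as a term.

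SS + RSD against SS called 0 in each tissue without the filter, in series A, with series or share as a term and with less than 7%, and 0 in the hippocampus without mice 5844, 5853 and 7078. SS + RSD + minocycline against SS + RSD called 0 in each tissue with series or share as a term and with less than 7%, 0 in the hippocampus without the filter, and in the cortex 2 without mice 5844, 5853 and 7078 and 4 without the 3 cortex libraries. Its Ppox difference turned to -0.12 in the cortex with series as a term (adjusted p = 1) and to -0.12 in the hippocampus with less than 7% (adjusted p = 0.702).

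In the cortex DESeq2 called 1 in AA + RSD + minocycline against AA + RSD, series B gave 3 in SS + RSD + minocycline against SS + minocycline (Alad, Alas2 and Urod lower, where 22.96% of all genes were called) and 4 in SS + minocycline against SS (Alad, Alas2 and Urod higher, Ppox lower, where 27.1% were), and libraries with 7% or more gave 1 in each of these (Ppox, where 5.59% and 5.33% were). Hippocampus against cortex in AA mice called 1 without the filter, 2 without mouse 5844 and 1 without mouse 9631. With the replicate block (mouse) it called 5 in AA mice, 3 in SS mice and 0 in their difference. The relations with Alas2 that passed were 6 on log2 CPM not centred on the groups and 15 without mice 5844, 5853, 7078, 9631 and 9674. The alternatives that leave out a set of mice other than single replicates, or use the 7% limit as a subset, were in part chosen after seeing the data.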

Other observations

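The 1 AA + minocycline mouse (10639) has no replicate. It held 20.6 CPM of Alas2 in the cortex and 15.7 CPM in the hippocampus, and its erythroid markers summed to 5.55 and 4.58 CPM. Its other members were at 57.5 and 62.9 CPM for Alas1, 19.2 and 19.7 CPM for Alad, 21.1 and 22.2 CPM for Uros, 33.1 and 33.4 CPM for Urod, 42.2 and 43.97 CPM for Cpox, 30.6 and 32.6 CPM for Ppox, and 67.3 and 69.002 CPM for Fech.

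The pair of libraries with identical counts under 2 group labels held 9.1 CPM of Alas2 in the cortex and 7.6 CPM in the hippocampus. Its Ppox was at 17.3 and 17.1 CPM, its Urod at 50.1 and 43.2 CPM and its Fech at 61.5 and 73.2 CPM.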
